A study of Homo sapiens with 6 samples.

Results

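The genes described here encode 10 cell-surface receptors for the extracellular matrix. They are 9 integrin chains (ITGA2, ITGA3, ITGA5, ITGAV, ITGB1, ITGB3, ITGB5, ITGB6 and ITGB8) and the hyaluronan receptor CD44. They were taken by symbol from a deposited count table of 58735 named genes, and all 10 were present. RNA-seq libraries came from 8505C, a human cell line established from an anaplastic thyroid carcinoma, grown in wells for 24 h before RNA isolation. In 3 libraries (control1, control2 and control3) the cells carried a control short hairpin RNA, with a genotype label of wild-type. In the other 3 (KD1, KD2 and KD3) they carried a hairpin against the homeobox gene HHEX, with a genotype label of HHEX KD. All 6 are labelled untreated, and how many hairpins or clones were used is not stated. The submitters call the libraries biological replicates, while in the titles 2 per group share a first number and no separate cultures are named. The p-values below therefore measure only spread among the 6 libraries, which may be technical.

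Integrins are heterodimers of 1 alpha and 1 beta chain, and the pairing decides which matrix protein is bound. The β1 chain pairs with α2 to bind collagen, with α3 to bind mainly laminins and with α5 to bind fibronectin, whereas αv pairs with β1, β3, β5, β6 or β8 to bind RGD-containing ligands such as fibronectin, vitronectin and the latent form of TGF-beta. CD44 is not an integrin: it binds hyaluronan and links the membrane to actin through ezrin, radixin and moesin. In epithelial tumours such as thyroid carcinoma these receptors are known for anchoring cells to stroma and for roles in migration.

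HHEX itself (ENSG00000152804) was measured first, in CPM (counts scaled to library size). It lay at 12.7, 12.8 and 12 CPM in control1 to control3, and at 14.8, 7.94 and 7.13 CPM in KD1 to KD3, or 118%, 63.6% and 57.1% of the control mean. The library labelled KD1 thus went against its label, and the HHEX groups overlapped (log2 fold change −0.33, SE 0.28, adjusted p = 0.527 by edgeR). Library totals ran from 13333245 to 15144176 counts. KD3 stood apart from the other HHEX shRNA libraries: 793 tested genes differed from the control mean by more than 2-fold in KD3, against 1775 in KD1 and 1818 in KD2, and 437 to 441 in a control library set against the other controls. Epithelial and line markers summed to 1576 to 2318 CPM in control and 1854 to 2388 CPM in HHEX shRNA libraries, nearly all of it from KRT8, KRT18 and VIM. The epithelial genes CDH1 and KRT19 were at or near 0, and EPCAM lay at 1.33 to 2.28 CPM in controls and 0.203, 0.501 and 1.69 CPM in KD1 to KD3. The thyroid list summed to 34.0 to 57.2 CPM in controls and 26.3 to 45.2 CPM in HHEX shRNA libraries, most of it from the thyroid factor NKX2-1 (26.8 to 50.5 and 18.0 to 38.0 CPM). PAX8 and FOXE1 were low, at 2.58 to 5.48 and 3.36 to 4.45 CPM over the 6 libraries, and TG, SLC5A5 and TSHR were at or near 0. Of markers of other cell types, 2 of 6 leukocyte, 2 of 7 fibroblast and 2 of 5 endothelial genes were high enough to test. Leukocyte markers summed to 3.29 to 5.52 CPM in control libraries and 5.87 to 11 CPM in HHEX shRNA libraries, the highest being KD3. LCP1 lay at 0.299 to 1.57 CPM in controls and 1.69, 1.79 and 7.98 CPM in KD1 to KD3. CD14 lay at 2.77 to 4.72 CPM in controls and 4.25, 3.72 and 2.12 CPM in KD1 to KD3. Fibroblast markers summed to 4.39 to 7.24 and 4.66 to 7.30 CPM, mostly from COL1A1 and PDGFRB, with DCN, LUM and COL1A2 near 0. Endothelial markers summed to 15.0 to 16.4 and 5.08 to 14.9 CPM, nearly all from CDH5 (10.3 to 10.9 CPM in controls, 2.61 in KD3) and PECAM1 (4.11 to 5.91 in controls, 1.91 in KD3), with KDR, TEK and VWF near 0. The libraries all came from the same cell line, so these counts need not come from other cell types. The part of these markers in the results was not tested. In bulk RNA, fewer cells expressing a gene and less RNA per cell cannot be told apart.

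Of the 10 receptors, 8 passed the filter on low counts and were tested with edgeR's quasi-likelihood test. None passed the threshold of 0.05 after Benjamini-Hochberg adjustment over the 14280 genes tested, of which 26 (0.182%) passed. At an unadjusted p below 0.05 there were 4, namely CD44, ITGA2 and ITGAV with higher values in the HHEX shRNA libraries and ITGA3 with lower values, where 20.6% of all tested genes reached the same mark (10.4% higher and 10.2% lower). DESeq2 called 3 (CD44, ITGA2 and ITGA3), against 5.52% of the genes it gave an adjusted p, and limma-voom called 0, against 0.196%. With KD3 left out edgeR called 5 (those 4 and ITGB5), but 31.6% of all genes then passed. Without the filter on low counts it called 2 (CD44 and ITGA2), against 4.8%, and with KD3 alone set against the controls it called 0 of the 8, against 1.22%. The groups did not overlap for 3 of the 8 tested receptors, CD44 and ITGAV above the controls and ITGA3 below, where 24.9% of all tested genes did not overlap (11.6% above and 13.3% below). The median log2 fold change over the 8 was 0.18, with 5 positive and 3 negative, beside −0.01 over all tested genes, of which 48.6% were positive. Annotated genes overlap 9 of the 10 receptors, but none shares exon bases with ITGA2 or ITGB5. Where exons overlap on opposite strands, reads cannot be told apart because strand is not stated. On the same strand, as for ITGB3 and ITGB6, strand would not tell them apart. None of the 20 overlapping genes was counted more than 40 times in a library, but this does not bound the reads counted to a receptor. AC092153.1, whose exons overlap ITGB6 on the same strand, was counted 2 times in KD1, where ITGB6 was counted 0 times.

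**Figure D1:**
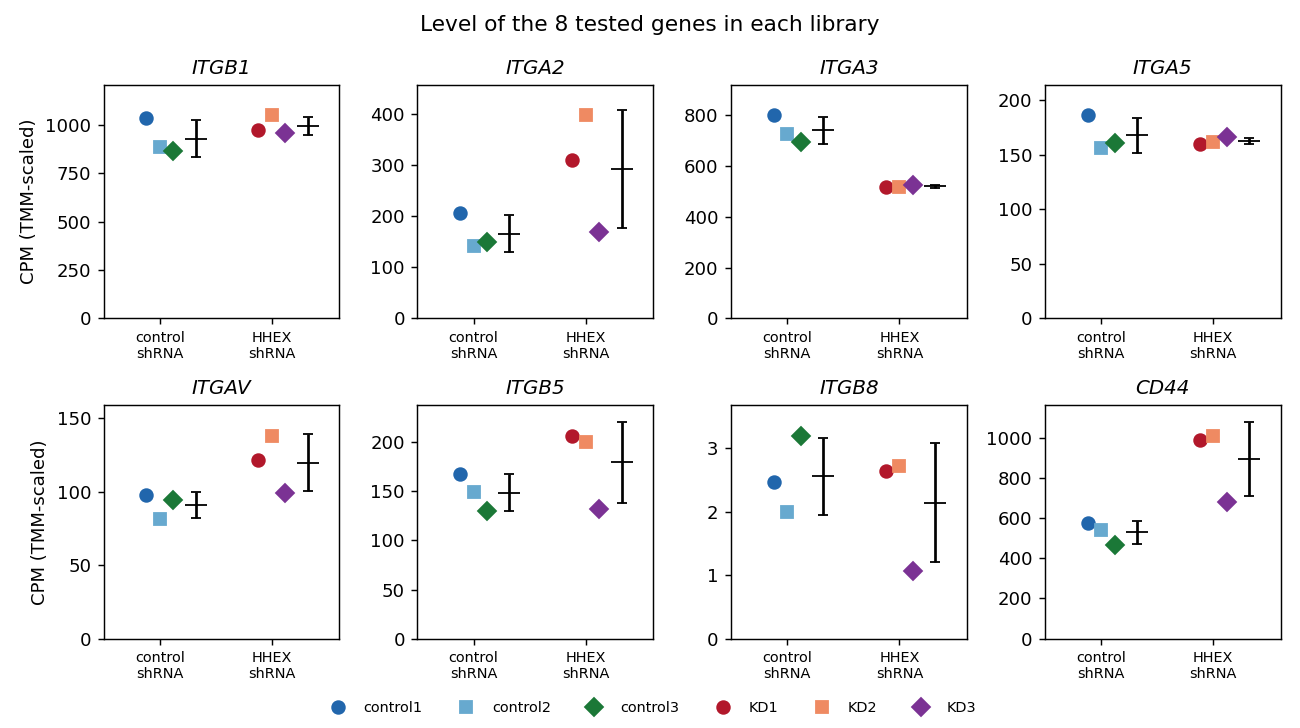
Expression of the 8 tested receptor genes in each library, in CPM on linear axes that start at 0, with 1 panel per gene, points for libraries and bars for the group mean with its SD (n = 3). CD44 sits at 467 to 578 CPM in controls and 683 to 1011 CPM in HHEX shRNA libraries, whereas ITGA3 sits at 695 to 798 and 515 to 524 CPM.

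ITGB1 (ENSG00000150093, GRCh38 chromosome 10, 32900319 to 33005792, minus strand) encodes the β1 chain shared by the collagen, laminin and fibronectin receptors. Its level was 1037, 887 and 865 CPM in control1 to control3, and 975, 1049 and 959 CPM in KD1 to KD3. The groups overlapped, with control1 between KD1 and KD2. This was a log2 fold change of 0.10 (SE 0.15, 95% interval −0.24 to 0.44, edgeR adjusted p = 0.737), so that a difference of more than about 0.44 on the log2 scale lay outside the interval.

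ITGA2 (ENSG00000164171, chromosome 5, 52989326 to 53094779, plus strand) encodes the collagen-binding α2 chain. Its level was 207.5, 142 and 149.5 CPM in control1 to control3, and 310.1, 398 and 169 CPM in KD1 to KD3. KD1 and KD2 stood above every control library, while KD3 lay inside the control range, at 102% of the control mean against 186.5% and 239% in the others. The log2 fold change was 0.82 (SE 0.30, interval 0.12 to 1.51), with an edgeR adjusted p of 0.194 that ran from 0.000135 to 0.966 over the alternatives, and an exact two-sided permutation p of 0.2. With 3 libraries against 3 that test cannot go below 0.1. Of all tested genes, 14.8% differed more from the control mean than ITGA2 in KD1, 7.15% in KD2 and 89.2% in KD3.

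ITGA3 (ENSG00000005884, chromosome 17, 50055968 to 50090481, plus strand) encodes α3, which with β1 forms a laminin receptor, so the gene fits the group by its shared β1 partner more than by collagen or fibronectin binding. Its level was 798, 726 and 695 CPM in control1 to control3, and 518, 515 and 524 CPM in KD1 to KD3. All 3 HHEX shRNA libraries lay below the lowest control and within 10 CPM of each other, at 70.1%, 69.6% and 70.9% of the control mean. On the log2 scale the fold change was −0.51 (SE 0.13, interval −0.82 to −0.21), with an edgeR adjusted p of 0.12 that ran from 0.00764 to 0.391 over the alternatives, and an exact permutation p of 0.1. Genes with a larger absolute difference made up 35.3%, 35.2% and 21.5% of those tested in KD1, KD2 and KD3.

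ITGA5 (ENSG00000161638, chromosome 12, 54395261 to 54419460, minus strand) encodes α5, the partner of β1 in the main fibronectin receptor. Its level was 186, 156 and 161 CPM in control1 to control3, and 159.8, 162 and 166 CPM in KD1 to KD3, all inside the control range. The log2 fold change was −0.05 (SE 0.12, interval −0.32 to 0.23, edgeR adjusted p = 0.851). Its sign rested on control1, since without that library the log2 fold change was 0.06.

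ITGAV (ENSG00000138448, chromosome 2, 186590065 to 186680901, plus strand) encodes αv, the chain common to the RGD receptors below. Its level was 97.8, 81.1 and 94.4 CPM in control1 to control3, and 121, 138 and 99.3 CPM in KD1 to KD3. Each HHEX shRNA library exceeded the highest control, but KD3 did so by less than 2 CPM. This gave a log2 fold change of 0.39 (SE 0.15, interval 0.05 to 0.74), with an edgeR adjusted p of 0.200 that ran from 0.00466 to 0.781 over the alternatives, and an exact permutation p of 0.1.

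ITGB5 (ENSG00000082781, chromosome 3, 124761948 to 124901418, minus strand), whose product binds vitronectin together with αv, was the only αv-specific beta chain of those measured here with more than 4 CPM. Its level was 167, 149 and 129.5 CPM in control1 to control3, and 207, 199.7 and 132 CPM in KD1 to KD3. KD1 and KD2 exceeded the controls, and KD3 lay near the lowest of them. Its log2 fold change was 0.27 (SE 0.19, interval −0.15 to 0.70, edgeR adjusted p = 0.427). It depended on the library, being 0.47 without KD3 and −0.17 with KD3 alone set against the controls.

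The remaining αv partners were scarce. ITGB8 (ENSG00000105855, chromosome 7, 20330702 to 20415754, plus strand), a receptor chain for latent TGF-beta, was counted 33, 30 and 49 times in control1 to control3, and 39, 38 and 15 times in KD1 to KD3. KD3 held the fewest, at 1.06 CPM (95% exact Poisson interval 0.593 to 1.75, counting error only), while KD1 and KD2 lay inside the control range of 1.99 to 3.19 CPM. The log2 fold change was −0.26 (SE 0.42, interval −1.21 to 0.69, edgeR adjusted p = 0.752), and it was 0.09 without KD3. ITGB3 (ENSG00000259207, chromosome 17, 47253846 to 47311816, plus strand), the β3 chain of the vitronectin receptor, was counted 8, 3 and 11 times in control1 to control3 and 9, 8 and 6 times in KD1 to KD3. These counts gave 0.199 to 0.717 CPM in controls and 0.424 to 0.608 CPM in HHEX shRNA libraries, too few to test, and their Poisson intervals overlapped. ITGB6 (ENSG00000115221, chromosome 2, 160099666 to 160200313, minus strand), an epithelial partner of αv, was counted 2 times in control3 and 0 times in the other 5 libraries. In those 5 a floor of 3 counts lay at 0.199 to 0.225 CPM, and the upper end of the exact Poisson interval at 0.245 to 0.276 CPM.

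CD44 (ENSG00000026508, chromosome 11, 35138870 to 35232402, plus strand) is the hyaluronan receptor. Its level was 578, 542 and 467 CPM in control1 to control3, and 992, 1011 and 683 CPM in KD1 to KD3. Every HHEX shRNA library exceeded every control, KD1 and KD2 by far more than KD3, at 187.5%, 191% and 129% of the control mean. The log2 fold change was 0.76 (SE 0.19, interval 0.33 to 1.19), with an edgeR adjusted p of 0.113 that ran from 0.000132 to 0.385 over the alternatives, and an exact permutation p of 0.1. Of all tested genes, 15.0% differed more than CD44 in KD1, 14.3% in KD2 and 32.3% in KD3. The counts are per gene, so standard and variant splice forms of CD44 were not told apart.

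**Figure D2:**
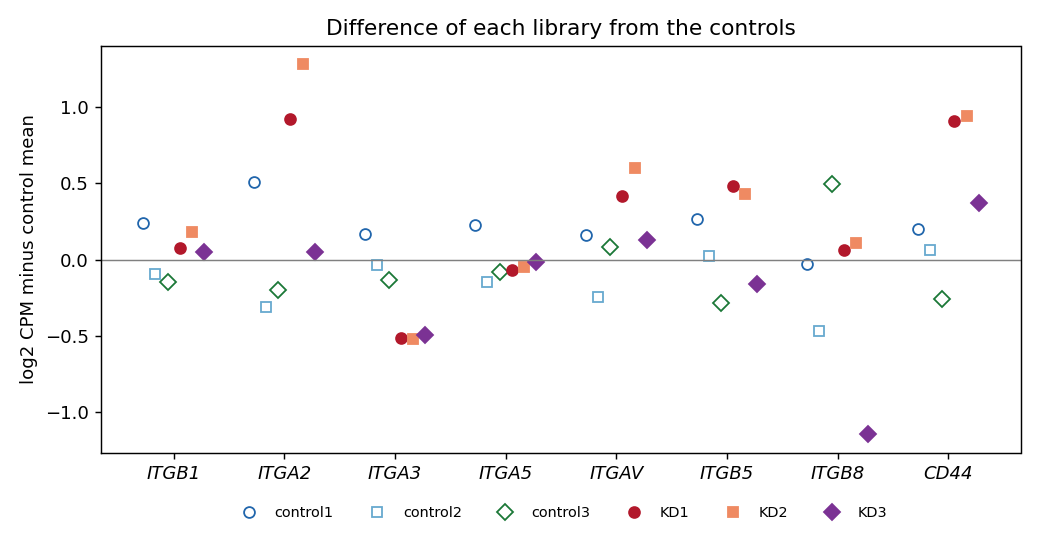
Log2 difference of each tested receptor gene from the control mean, with 1 point per library (a control library is set against the mean of the other controls) and the vertical axis in log2 units. KD3 lies at 0.05 for ITGA2 and −0.16 for ITGB5, where KD1 and KD2 lie at 0.92 and 1.28 for ITGA2 and 0.48 and 0.43 for ITGB5, while the HHEX shRNA libraries coincide at −0.51, −0.52 and −0.49 for ITGA3.

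The HHEX shRNA libraries differed among themselves over these genes. The median difference over the 8 tested receptors was 0.25 in KD1 and 0.31 in KD2 but 0.02 in KD3, beside 0.21, −0.12 and −0.14 in the controls. ITGA3 was at the same level in all 3, whereas ITGA2, ITGAV, ITGB5 and CD44 were nearer to the controls in KD3. On the log2 scale KD1 lay nearer to KD2 than to KD3 for every tested receptor but ITGB1, though by little for ITGA3 and ITGA5.

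**Figure D3:**
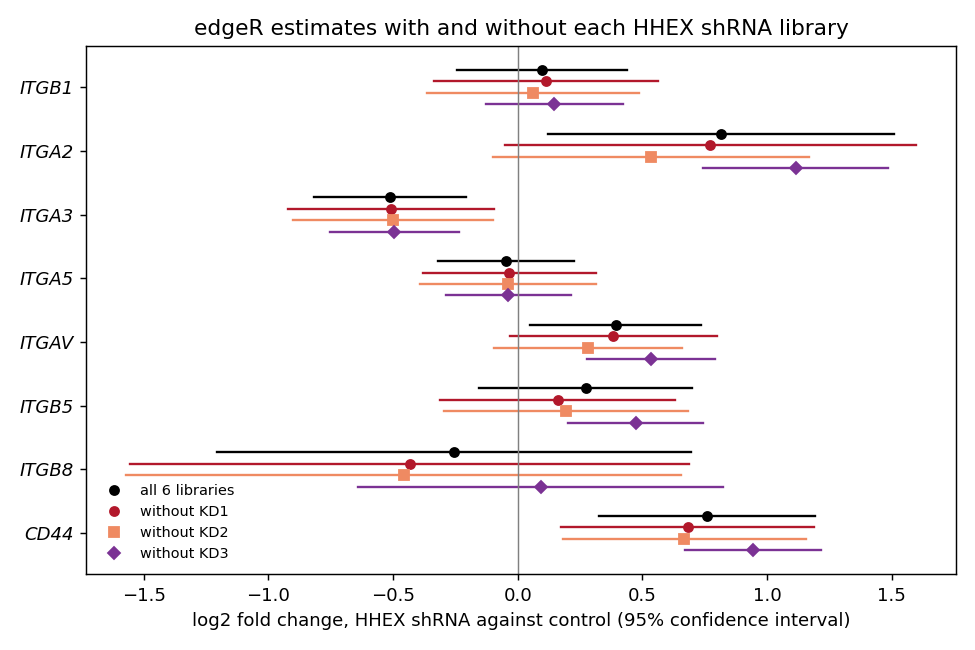
Log2 fold change (HHEX shRNA minus control, edgeR) of each tested receptor gene with its 95% interval, with all 6 libraries and without each HHEX shRNA library in turn. With all 6 the interval lies above 0 for CD44 (0.33 to 1.19), ITGA2 (0.12 to 1.51) and ITGAV (0.05 to 0.74) and below 0 for ITGA3 (−0.82 to −0.21), and none of these passed after adjustment over all genes, while without KD1 or KD2 it spans 0 for ITGA2 and ITGAV.

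Levels were compared between genes per kilobase (kb) of merged GENCODE exons. In control libraries ITGB1 was highest, at 155 ± 15.6 CPM per kb (SD, n = 3). ITGA3 followed at 75.5 ± 5.39 and CD44 at 52.9 ± 5.63. ITGB5 at 23.1 ± 2.93, ITGA5 at 22.1 ± 2.11 and ITGA2 at 21.0 ± 4.55 CPM per kb had overlapping ranges and cannot be ranked by this length. ITGAV lay below them at 11.1 ± 1.07, followed by ITGB8 at 0.168 ± 0.0399 and ITGB3 at 0.115 ± 0.0618, whose ranges overlap, and ITGB6 at the bottom. In HHEX shRNA libraries CD44, at 89.5 ± 18.4 CPM per kb, stood above ITGA3, at 53.0 ± 0.481, and ITGA2 averaged 37.0 ± 14.6. ITGB1 remained the highest at 165 ± 8.03 CPM per kb. Per kb of the longest transcript, control ranges were 18.0 to 26.4 CPM for ITGA2, 31.3 to 37.2 for ITGA5 and 29.6 to 38.3 for ITGB5. ITGA2 then lay below both, so its place rests on the length chosen.

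The composition of alpha chains, most of which pair with β1, was described as shares of the summed per-kb level of all 18 alpha chains. ITGA3 took 39.0%, 41.7% and 42.3% of alpha-chain RNA in control1 to control3, and 25.6%, 23.2% and 34.7% in KD1 to KD3. ITGA2 took 12.6%, 10.1% and 11.3% in controls, and 19.0%, 22.3% and 13.9% in KD1 to KD3. Neither pair of ranges overlapped. The levels of 24.9% of all tested genes did not overlap, but no such figure was computed for shares, which depend on each other within a sum. The level of ITGA2 itself overlapped, with KD3 at 169 CPM inside the control range. The summed alpha-chain level was 209, 178 and 167 CPM per kb in control1 to control3, and 206, 226 and 154 in KD1 to KD3. ITGA6, another laminin receptor chain, took 20.9% to 25.7% in controls and 34.0%, 33.7% and 25.0% in KD1 to KD3. ITGA5 held 11.6% to 12.7% in controls and 9.44% to 14.2% in HHEX shRNA libraries, and ITGAV 5.56% to 6.87% and 7.16% to 7.85%. The shares depend on the length used: with the longest transcript, ITGA3 averaged 49.8% in controls and 36.3% in HHEX shRNA libraries, ITGA6 19.0% and 26.4%, and ITGA2 7.73% and 13.6%. The order of ITGA3 and ITGA6 in KD1 and KD2 therefore rests on the length chosen and is not given.

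**Figure D4:**
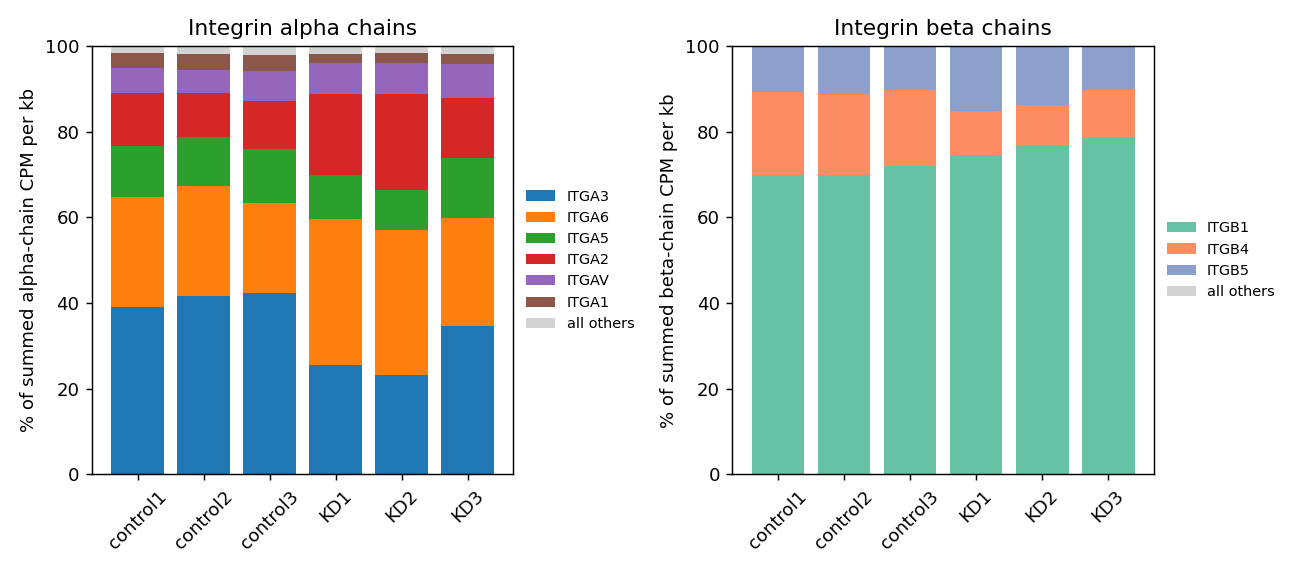
Share of each integrin chain in the summed level per kb of alpha chains and of beta chains, in percent, with 1 stacked bar for each library. ITGA3 takes 39.0% to 42.3% of alpha-chain RNA in controls and 23.2% to 34.7% in HHEX shRNA libraries, and ITGB1 takes 69.8% to 72.0% and 74.6% to 78.5% of beta-chain RNA.

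Among the 8 beta chains, ITGB1 took 69.8%, 69.8% and 72.0% in control1 to control3, and 74.6%, 76.6% and 78.5% in KD1 to KD3. The level of ITGB1 itself overlapped between the groups. ITGB4, the partner of α6 in hemidesmosomes, had a share of 17.7% to 19.4% in controls and 9.51% to 11.2% in HHEX shRNA libraries. The summed beta-chain level was 247, 211 and 199.9 CPM per kb in controls and 217, 228 and 203 in KD1 to KD3, which overlap.

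Ratios within a library do not depend on the scaling between libraries. The ratio of ITGA2 to ITGA3 per kb was 0.322, 0.242 and 0.267 in control1 to control3, and 0.742, 0.958 and 0.400 in KD1 to KD3. All 3 HHEX shRNA libraries had a higher ITGA2 to ITGA3 ratio than any control. In KD3 the level of ITGA2, 169 CPM, lay inside the control range, while that of ITGA3 lay below it. The ratio covers this pair of genes and not all collagen and laminin receptor chains. The ratio of ITGA3 to ITGB1 was 0.472 to 0.502 in controls and 0.301 to 0.336 in HHEX shRNA libraries, and that of CD44 to ITGB1 was 0.325 to 0.367 and 0.428 to 0.611, again without overlap. The levels of ITGA3 and CD44 themselves did not overlap between the groups, as was so for 24.9% of all tested genes. No such share was computed over other gene pairs. The ITGA5 to ITGB1 ratio, of the fibronectin receptor, was 0.140 to 0.148 in controls and 0.122 to 0.137 in HHEX shRNA libraries. For ITGAV to ITGB5 the ranges were 0.426 to 0.572 and 0.460 to 0.590, and they overlapped.

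Promoter sequence is shown for the receptors with the largest positive differences, CD44 and ITGA2, and for the β1 and α5 chains, which differed least, from RefSeq windows on GRCh38.p14 that run from 250 bases before to 50 after each start. Windows were found for 8 of the 10 genes (12 windows), and ITGA3 and ITGB3 were not matched. Each stretch is written 5′ to 3′ on the strand of its gene, with capitals for the motifs GGGCGG (the SP1 core, also read as CCGCCC on the other strand), TGANTCA (AP-1) and GGAATG (TEAD).
ITGA2, chr5:52989202-52989325, plus strand, upstream of the annotated gene: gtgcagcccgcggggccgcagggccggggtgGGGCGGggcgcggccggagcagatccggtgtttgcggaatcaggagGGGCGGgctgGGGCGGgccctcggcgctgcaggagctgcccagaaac
CD44, chr11:35138997-35139026, plus strand, within an annotated exon: cacgGGGCGGgggcagaggggcCCGCCCgg
ITGB1, chr10:32958385-32958414, minus strand, within the gene but in no exon: gaGGAATGcgtttccggagggagaGGGCGG
ITGA5, chr12:54419253-54419282, minus strand, within an annotated exon: ctccccgcgtTGAGTCAttcgcctctggga
The ITGA2 window held 4 SP1 matches, at −119, −73, −63 and −9 from the start, and the CD44 window held 2, at −170 and −152. SP1 letters were found in 8 of the 12 windows, of 6 of the 8 genes, and occur in 45% of 35116 promoter windows, on either strand. The AP-1 letters occurred in ITGA5 alone of these windows, at −6, and occur in 7.71% of all windows. TEAD letters were found in 1 ITGB1 window and in ITGA5, and in 14% of all windows. The windows of ITGAV and ITGB6 held none of these letters. A match is a description of letters and says nothing about binding.

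The rest of the pathway was described by gene lists, in none of which edgeR called a gene. The counts below of genes at an unadjusted p below 0.05 stand beside 10.4% higher and 10.2% lower over all tested genes, and a count near those shares is no result about a list. Of the other integrin subunits 9 of 17 were tested, with 3 positive and 6 negative log2 fold changes and a median of −0.24, and 2 had an unadjusted p below 0.05, both lower. ITGB4 lay at 324, 271 and 239 CPM in control1 to control3 and at 151, 146 and 154 CPM in KD1 to KD3, all below the controls (log2 fold change −0.88, SE 0.14, edgeR adjusted p = 0.0584). ITGA1, another collagen-binding alpha chain, lay at 115 to 138.5 CPM in controls and 67.6 to 97.7 CPM in HHEX shRNA libraries (−0.56, SE 0.16, edgeR adjusted p = 0.131). The fold changes of ITGA1 and ITGA2 thus had opposite signs, and ITGA11, a further collagen-binding chain named after its values were seen, had a log2 fold change of −0.18 at 5.87 to 8.53 CPM over the 6 libraries. ITGA6 had a log2 fold change of 0.46 and an adjusted p of 0.344 by edgeR.

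Of 31 matrix ligands 25 were tested, with 15 positive and 10 negative values, a median of 0.10, and 6 higher and 4 lower at an unadjusted p below 0.05. LAMA5, a chain of the laminins that α3β1 and α6β4 bind, lay at 995, 1127 and 1237 CPM in control1 to control3 and 389, 480 and 563.5 CPM in KD1 to KD3, without overlap (log2 fold change −1.23, SE 0.18, edgeR adjusted p = 0.0511). THBS1, which encodes thrombospondin-1, was at 116 to 140.1 CPM in controls, 426 and 463 CPM in KD1 and KD2, and 149 CPM in KD3. The matricellular integrin ligands CYR61 and CTGF had log2 fold changes of 0.57 and 0.50, with edgeR adjusted p of 0.12 and 0.131.

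Of 28 adhesion adaptors, the cytoplasmic proteins that tie integrins to actin, 27 were tested, and 19 were positive and 8 negative with a median of 0.12. At an unadjusted p below 0.05 there were 6 higher and 2 lower. FERMT2 (kindlin-2, an integrin activator) lay at 131 to 145 CPM in controls and 181 to 243 CPM in HHEX shRNA libraries (log2 fold change 0.67, SE 0.14, edgeR adjusted p = 0.0966). VCL (vinculin) had a log2 fold change of 0.70 and ACTN4 (α-actinin-4) one of 0.68, with edgeR adjusted p of 0.107 and 0.12. TNS4, a tensin, was lower, at 9.97 to 16.1 CPM in controls and 3.74 to 7.76 CPM in HHEX shRNA libraries.

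Of 21 genes of hyaluronan metabolism and CD44 partners 16 were tested, with 11 positive and 5 negative values and a median of 0.26, and 4 higher and 0 lower at an unadjusted p below 0.05. MSN (moesin), which tethers the CD44 tail to actin, lay at 678 to 950.5 CPM in controls and 1110 to 1521 CPM in HHEX shRNA libraries (log2 fold change 0.79, edgeR adjusted p = 0.113). Its relatives RDX and EZR had log2 fold changes of 0.38 and 0.32, with edgeR adjusted p of 0.160 and 0.210. HAS3, a hyaluronan synthase, was at 4.66 to 6.65 CPM in controls and at 15.5, 11.1 and 7.06 CPM in KD1 to KD3. As for CD44, KD3 gave the lowest of the HHEX shRNA values for MSN and HAS3. This was not so for RDX, at 159, 166 and 173 CPM in KD1 to KD3, or for EZR, at 389, 364 and 376 CPM. The list median for KD1 and KD2 was 0.35 and 0.38, against −0.03 for KD3.

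Of 12 genes of latent TGF-beta storage and signalling, the ligand side of the αv receptors, 10 were tested, with 6 positive and 4 negative values and a median of 0.19, and 2 higher and 1 lower at an unadjusted p below 0.05. LTBP4, which binds latent TGF-beta in the matrix, lay at 97.8 to 134 CPM in controls and 72.7 to 77.7 CPM in HHEX shRNA libraries (−0.57, edgeR adjusted p = 0.113). TGFBR1, a TGF-beta receptor, lay at 74.1 to 95.4 CPM in controls, 197 and 218 CPM in KD1 and KD2, and 79.6 CPM in KD3, inside the control range (0.99, edgeR adjusted p = 0.184).

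Of 16 integrin trafficking genes 15 were tested, with 10 positive and 5 negative values and a median of 0.04, and 1 higher and 1 lower at an unadjusted p below 0.05. SNX17, which recycles β1 integrins to the surface, lay at 101 to 111 CPM in controls and 75.3 to 85.6 CPM in HHEX shRNA libraries (log2 fold change −0.36, edgeR adjusted p = 0.154). CLTC, the higher gene, lay at 520 to 616 CPM in controls and 621 to 839 CPM in HHEX shRNA libraries (0.41, edgeR adjusted p = 0.208). All 13 tetraspanins and membrane partners were tested, and 4 were positive and 9 negative with a median of −0.10, and 2 were lower at an unadjusted p below 0.05. BSG (basigin) lay at 909 to 1058 CPM in controls and 683.5 to 763 CPM in HHEX shRNA libraries (−0.43, edgeR adjusted p = 0.171). SLC3A2, the CD98 heavy chain that binds beta integrin tails, was at 942 to 1381 CPM in controls and 1273 CPM in KD3, but at 149.8 and 148 CPM in KD1 and KD2.

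**Figure D5:**
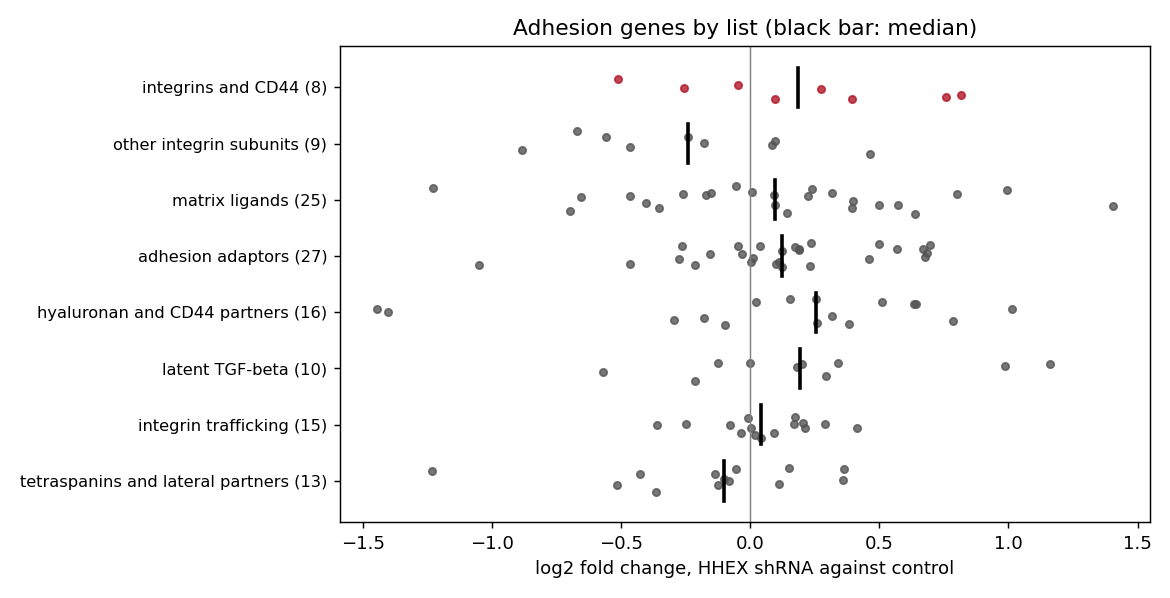
Log2 fold change (HHEX shRNA minus control, edgeR) of every tested gene in each pathway list, with 1 point per gene and a bar at the list median, and the horizontal axis in log2 units. The medians run from −0.24 for the other integrin subunits to 0.26 for hyaluronan and CD44 partners, beside −0.01 over all tested genes.

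Genes with the most similar profile were found for the 3 receptors with the largest fold changes, as the smallest root mean square difference of centred log2 CPM over the 6 libraries among 7670 genes. For ITGA2 they were GNB4 (0.115), SLC39A10 (0.117) and NCEH1 (0.118), against a median of 0.548 over genes. For CD44 they were CERK (0.0516), CLMP (0.0592) and AP1S3 (0.0597), against a median of 0.428. For ITGA3 they were TMEM101 (0.0419), BMP1 (0.0486) and MAGT1 (0.0566), against a median of 0.341. The measure is also small for any pair of genes that vary little, as ITGB1 and ITGA5 did (0.0893).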

How the data were processed

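RNA was extracted with Trizol, and mRNA capture and library kits of the TIANSeq series were used, per the labels' protocols, which do not mention strand. The authors deposited raw counts per gene for each library, and 6 further columns of values per sample were left unused. Aligner, counter and build: not given in the sources used here. Start and end of 58672 of the 58735 named genes equal GENCODE release 29 on GRCh38, and those of the genes located here are among them. The 998 rows without a gene name (0.239% to 0.298% of counts) stayed out. Columns were assigned to groups by name, and could not be tied to replicate titles.

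The main test was run in edgeR 4.0.16 on R 4.3.3 (filterByExpr by group, TMM, robust glmQLFit, glmQLFTest, no covariates), which left 14280 genes. Benjamini-Hochberg adjustment ran over all of these, with a threshold of 0.05. Each SE was derived from the log2 fold change and its F statistic. CPM used TMM factors, and log2 CPM a prior count of 2. Single genes were also compared by exact two-sided permutation of the libraries. Exon lengths and overlaps came from GENCODE. The fit was tested on simulated counts. Alternatives were RLE, upper-quartile and no scaling, no filter, non-robust fitting, a prior count of 0.5, DESeq2 1.42.0, limma-voom (limma 3.58.1) and each library left out, and, chosen after seeing the data, KD3 alone and KD1 with KD2 summed.

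The receptors and lists (other integrin subunits, matrix ligands, adhesion adaptors, hyaluronan and CD44 partners, latent TGF-beta, integrin trafficking, tetraspanins and partners, and markers of leukocytes, fibroblasts, endothelium, thyroid and the line) were chosen with earlier results of these data known. Of a list, genes past the threshold, and otherwise up to 4 with the smallest p, could be named. The 3 genes most like each of the 3 receptors with the largest fold changes were taken at a mean of 20 CPM or more. Of the thyroid list 3 genes were tested and of the line list 4. Some genes that the lists hold are not reported here by name.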

Additional observations from a re-analysis of the deposited data

How the results depend on the processing

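At least 1 alternative moved each count. The 26 genes called (15 higher, 11 lower) became 31 with RLE, 35 with upper-quartile (15 higher, 20 lower), 37 without scaling (15 higher, 22 lower), 1359 without a filter (4.8% of those tested), 774 with DESeq2, 191 with KD3 alone, 0 with KD1 and KD2 summed, and 0 to 4675 with a library left out. The 4675 came without KD3, and the 0 without KD1, KD2, control2 or control3 (1789, 1625, 1947 and 1806 genes at an unadjusted p below 0.05). Receptors called became 2 without a filter (CD44 and ITGA2), 3 with DESeq2, and 0 to 5 with a library left out. By receptor, DESeq2 gave log2 fold changes of 0.84 for ITGA2 (adjusted p = 0.0487), −0.48 for ITGA3 (0.0371) and 0.79 for CD44 (0.0063), and no filter gave 0.82 for ITGA2 and 0.77 for CD44. With a library left out the log2 fold change ran from 0.05 to 0.21 for ITGB1, 0.53 to 1.11 for ITGA2, −0.55 to −0.43 for ITGA3, −0.078 to 0.061 for ITGA5, 0.28 to 0.53 for ITGAV, 0.16 to 0.47 for ITGB5, −0.46 to 0.092 for ITGB8 and 0.67 to 0.94 for CD44. Signs turned for ITGA5 without control1 (0.061), ITGB8 without KD3 (0.092) and ITGB5 with KD3 alone (−0.17), where the lone library is assumed to vary like the controls. Calls within lists, 0 with all libraries, reached for other integrin subunits 1 with upper-quartile, no scaling or DESeq2, 2 without a filter and 0 to 3 with a library left out. For matrix ligands they were 1 with RLE, upper-quartile, no scaling or limma-voom, 4 with DESeq2, 6 without a filter and 0 to 14. For adhesion adaptors they were 5 with DESeq2, 7 without a filter and 0 to 11, for hyaluronan and CD44 partners 2, 3 and 0 to 13, and for latent TGF-beta 2, 3 and 0 to 4. For integrin trafficking they were 0 to 4 and for tetraspanins 0 to 6 with a library left out. The highest of each of these list counts came without KD3, where 31.6% of all tested genes passed. The cause was not tested. No paired analysis was possible because the columns carry no replicate title. Depth limits ITGB3, ITGB6 and ITGB8, and Poisson intervals cover counting error only.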

Other observations

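ITGB1-DT (ENSG00000229656), a divergent transcript whose exons overlap ITGB1 on the opposite strand, was chosen after its values were seen. It was counted 9, 10 and 9 times in control1 to control3, and 40, 31 and 26 times in KD1 to KD3, without overlap. Its log2 fold change was 1.80 (SE 0.38, edgeR adjusted p = 0.0940), while that of ITGB1 was 0.10. Since strand is not stated, reads of the 2 genes cannot be told apart where they overlap. CD44-AS1, antisense to CD44, was counted 2, 2 and 3 times in control1 to control3 and 10, 7 and 2 times in KD1 to KD3, and was too low to test.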
